A study of Mus musculus with 6 samples.

Results

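The genes described here are 43 genes of skeletal muscle in mouse skin: components of the sarcomere, proteins that store and move calcium in the fiber, enzymes that supply its energy, and regulators of muscle identity and muscle breakdown. They were chosen as a list of symbols, with earlier results of these data known. A gene entered through the array probes that were not controls and carried its name. All 43 were on the array, on 58 probes, among 24757 features tested in all, and 11 of them had several probes. Gene expression was measured with 3 arrays of skin tumors and 3 arrays of healthy skin from female mice of the inbred strain FVB/N. The tumors, labelled as cSCC (cutaneous squamous cell carcinoma), arose after topical DMBA, a mutagen, followed by the phorbol ester TPA (also called PMA), a tumor promoter, for 6 weeks and, after another DMBA dose, for 14 more weeks. Healthy skin had received acetone. Painted skin free of tumors was not analysed here, so what the tumor does and what the treatment does cannot be told apart. Whether each biopsy had its own mouse is not given in the labels, and p-values measure only how far these samples spread.

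Skeletal muscle contracts when thick filaments of myosin pull on thin filaments of actin inside a repeating unit, the sarcomere, whose borders are the Z-discs and whose length titin spans. Calcium released from the sarcoplasmic reticulum binds troponin on the thin filament and starts the pull, and a calcium pump ends it, while creatine kinase and glycogen breakdown supply ATP. In mouse skin, skeletal muscle is known as the panniculus carnosus, a thin sheet of mostly fast fibers under the dermis and its fat.

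A value below is a log2 signal relative to the 75th percentile of its array, so 0 stands for that percentile, and a fold change is therefore relative to the array's upper signals. Each sample had 0.2 µg of RNA with an integrity number of 9, per the labels. Spots well above background made up 48.7% to 65.4% of an array. Tumor 1 was at the low end of this range and had a median background intensity of 85, where the other arrays had 23 to 26. Healthy skin 3 was the dimmest array, its 75th percentile being 242 where the others had 525 to 897. All arrays lay on 1 slide, with healthy skin 1 and 2 in slide row 1 and the other 4 arrays in slide row 2.

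Muscle genes were far lower in the tumors than in healthy skin, and the exceptions were few. Of the 43 genes, 36 fell (83.7%, beside 15.6% of all features), 1 rose (Tnni1, the slow troponin I, 2.33% beside 10.3% of all features) and 6 did not pass the test (limma, two-sided, Benjamini-Hochberg adjusted p under 0.05 over all features). The 6 were the slow troponins Tnnt1 and Tnnc1, the intermediate filament gene Des, the calcium-handling genes Casq2 and Sln, and the regulator Myod1. The median log2 fold change was -4.47 (interquartile range -4.95 to -3.09), which leaves 4.50% of the healthy skin signal, against -0.16 (-0.86 to 0.56) over all features. Tested against a 1-unit log2 change (limma's treat), 31 of the 43 were lower (72.1%, beside 4.43% of all features). At least 16-fold lower were 27 of the 43 (62.8%, beside 1.67% of all features), and 7 of them were among the 100 largest falls of the whole array. In bulk samples, fewer muscle cells and less of these RNAs per cell cannot be told apart.

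**Figure D1:**
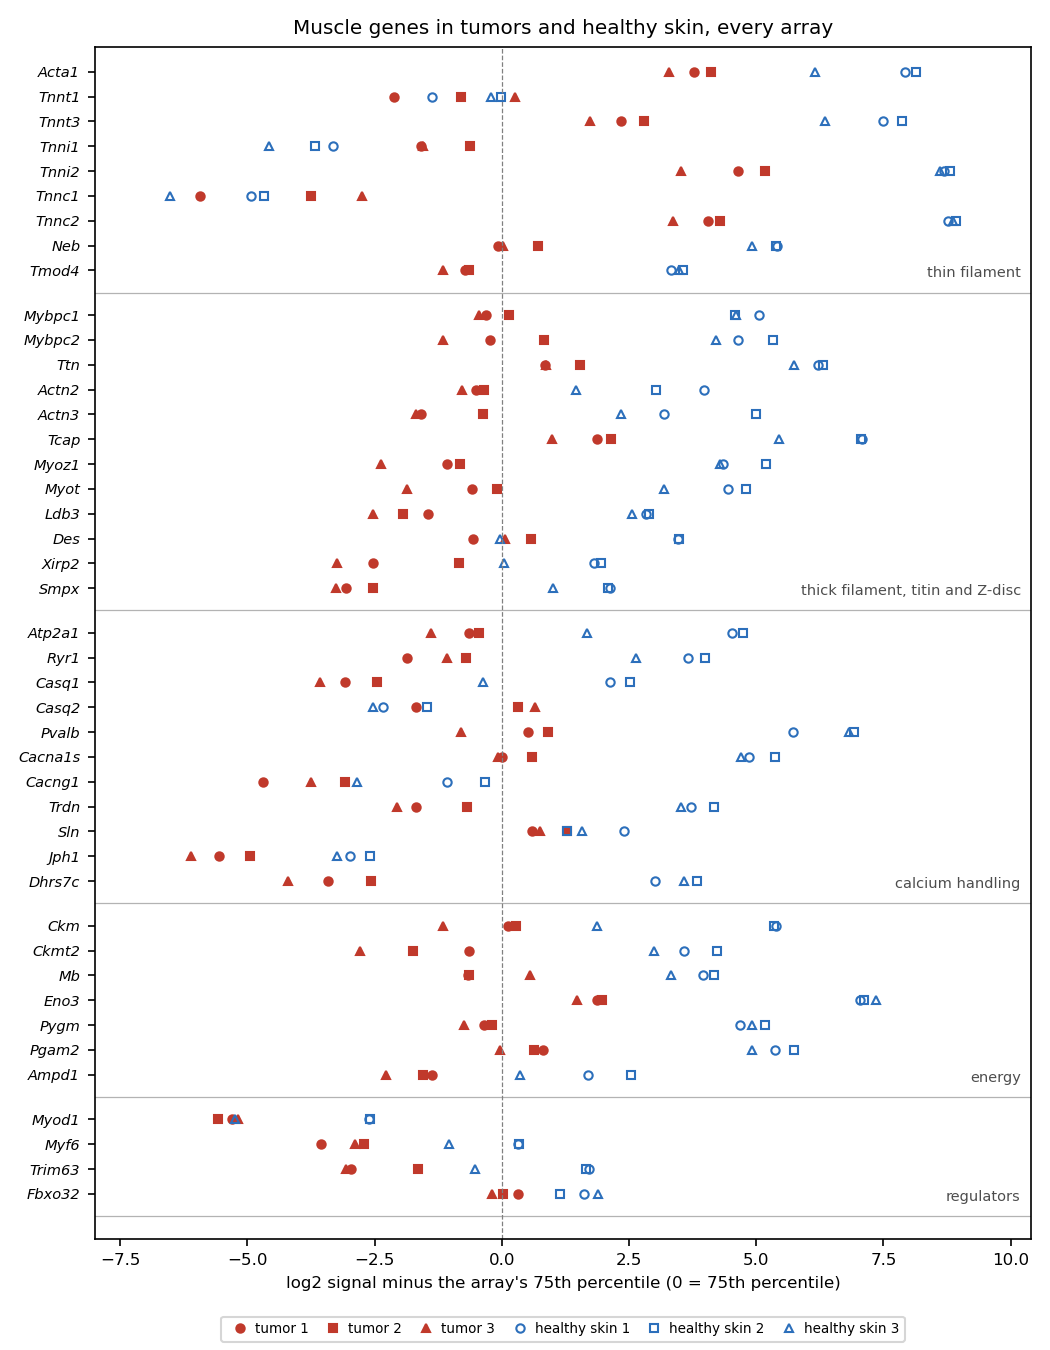
Log2 signal relative to the array's 75th percentile (x axis) of the 43 muscle genes (y axis, by role) on every array, with filled red symbols for tumors, open blue symbols for healthy skin and the symbol's shape for the array number. In 36 genes all 3 tumors lie left of all 3 healthy skin arrays, and Tnni1 is the gene with all 3 tumors to the right.

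In 36 of the 43 genes all 3 tumors lay below all 3 healthy skin arrays (83.7%, beside 29.0% of all features), in 1 they lay above, and in 6 the groups overlapped. The median of the 43 log2 signals was -0.65, -0.37 and -1.15 in tumors 1 to 3 and 3.66, 4.17 and 2.63 in healthy skin 1 to 3. Signals above the array's 75th percentile were seen for 13, 18 and 13 of the genes in the tumors and for 36, 36 and 32 in healthy skin. Well above background were 37, 43 and 42 of the genes in tumors 1 to 3, and 42, 43 and 40 in healthy skin 1 to 3. Of all features past the background filter, 79.5%, 96.4% and 98.2% were so in tumors 1 to 3. In healthy skin 1 to 3 the shares were 96.8%, 97.6% and 91.6%, so the counts of the genes are near those of all features. Within a group, most of the genes ranked the arrays alike. Tumor 2 had the highest tumor value in 33 genes and tumor 3 the lowest in 30, and healthy skin 2 had the highest healthy skin value in 32 and healthy skin 3 the lowest in 33.

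Healthy skin 3 therefore sets the size of several falls. Without it the median was -4.94 and the fall of 9 of the 36 lower genes moved by over 1.5 times (Acta1, Actn2, Xirp2, Atp2a1, Casq1, Cacng1, Ckm, Ampd1 and Trim63), each to a larger fall. Slide row 2 held all tumors and, of healthy skin, that array alone, so a fit on this row and a fit with the row as a block make the same contrast, healthy skin 3 against the tumors, with a median of -3.79. By the fit on this row 31 genes were lower, with the spread taken from the tumors and healthy skin 3 assumed to vary like them. By the block, whose spread also takes in healthy skin 1 and 2, 33 were lower.

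Of 9 thin filament genes, 6 fell (beside 15.6% of all features), by 12.8-fold to 32.3-fold. All 6 were genes of fast fibers or of the filament in general. The slow troponins gave the 1 rise and 2 values that did not pass the test. Troponin is the calcium switch of the thin filament, with a tropomyosin-binding subunit (T), an inhibitory subunit (I) and a calcium-binding subunit (C), and slow and fast fibers use different genes for each. Tnnt3, fast troponin T, had log2 signals of 2.34, 2.80 and 1.73 in the tumors and 7.49, 7.87 and 6.36 in healthy skin. The groups lay well apart, and the signal was 30.8-fold lower (log2 fold change -4.95 ± 0.47 SE, limma adjusted p = 0.000908). Tnnt1, slow troponin T, had -2.13, -0.80 and 0.26 in the tumors and -1.37, -0.02 and -0.22 in healthy skin. These overlapped, with tumor 3 above every healthy skin array, and the log2 fold change of -0.36 ± 0.64 did not pass (adjusted p = 0.705) and turned to 0.54 with spike-in scaling and to 0.26 without tumor 1.

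Tnni2, fast troponin I, had 4.64, 5.17 and 3.52 in the tumors and 8.69, 8.80 and 8.62 in healthy skin, where its 3 values were close together. It was 19.2-fold lower (-4.26 ± 0.44, adjusted p = 0.00109; probe on chromosome 7, positions 149630251 to 149630310, mm9). Tnni1, slow troponin I, ran the other way, with -1.58, -0.63 and -1.54 in the tumors and -3.31, -3.68 and -4.57 in healthy skin. Every tumor lay above every healthy skin array, and the signal was 6.06-fold higher (2.60 ± 0.43, adjusted p = 0.00628; probe on chromosome 1, positions 137705328 to 137706203, mm9), from a low level that was well above background on 3 tumor and 2 healthy skin arrays. The call of Tnni1 was lost when tested against a 1-unit log2 change (treat, adjusted p = 0.0515).

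Tnnc2, fast troponin C, had 4.06, 4.29 and 3.36 in the tumors and 8.77, 8.92 and 8.87 in healthy skin, 30.8-fold lower (-4.95 ± 0.32, adjusted p = 0.000294). Tnnc1, the troponin C of slow and cardiac muscle, had -5.94, -3.74 and -2.74 in the tumors and -4.94, -4.67 and -6.52 in healthy skin. Its groups overlapped, it was well above background on 2 tumor and 1 healthy skin arrays, and its log2 fold change of 1.24 ± 0.85 did not pass (adjusted p = 0.306). It was 2.14 without tumor 1 and 0.54 without tumor 3, and passed in neither case. Neb, nebulin, which runs along the thin filament, had -0.07, 0.72 and 0.02 in the tumors and 5.40, 5.39 and 4.92 in healthy skin, 32.3-fold lower (-5.01 ± 0.33, adjusted p = 0.000294). Another Neb probe on the same strand was also lower (-4.49, limma adjusted p = 0.00328). The remaining Neb probe, which maps to the opposite strand and was dim, was not called (-0.61, limma adjusted p = 0.274). Acta1, skeletal alpha-actin, averaged 3.72 ± 0.42 in tumors and 7.40 ± 1.09 in healthy skin (SD, n = 3 each). Tmod4, which caps the filament's slow-growing end, averaged -0.84 ± 0.27 in tumors and 3.46 ± 0.12 in healthy skin. Acta1 fell by 12.8-fold, a call lost with spike-in scaling (adjusted p = 0.0542), and Tmod4 by 19.7-fold.

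In the thick filament, titin and the Z-disc, 11 of 12 genes fell (beside 15.6% of all features), by 10.3-fold to 65.5-fold, and the group's median was -4.80 on the log2 scale. The remaining gene, Des, was decided by a single array. Myoz1, which tethers calcineurin to the Z-disc of fast fibers, had -1.07, -0.82 and -2.38 in the tumors and 4.34, 5.19 and 4.30 in healthy skin. That is a 65.5-fold lower signal (-6.03 ± 0.48, adjusted p = 0.000545), with a gap between the groups wider than the range within either. Ttn, titin, the spring that spans from Z-disc to the middle of the sarcomere, had 0.85, 1.54 and 0.87 in the tumors and 6.22, 6.32 and 5.74 in healthy skin (-5.0 ± 0.32, adjusted p = 0.000294). Myot, myotilin of the Z-disc, had -0.59, -0.10 and -1.87 in the tumors and 4.45, 4.79 and 3.18 in healthy skin (-4.99 ± 0.58, adjusted p = 0.00169). In both genes all tumors lay below all healthy skin arrays.

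The myosin-binding proteins of slow and of fast fibers fell by similar amounts. Mybpc1, the slow form, had -0.30, 0.13 and -0.45 in the tumors and 5.04, 4.58 and 4.60 in healthy skin, 30.9-fold lower (-4.95 ± 0.30, adjusted p = 0.000263). Mybpc2, the fast form, had -0.23, 0.83 and -1.16 in the tumors and 4.63, 5.32 and 4.21 in healthy skin, 30.0-fold lower (-4.91 ± 0.54, adjusted p = 0.00142). The alpha-actinins cross-link actin at the Z-disc. Actn2, found in all fibers, had -0.51, -0.35 and -0.78 in the tumors and 3.98, 3.04 and 1.45 in healthy skin, 10.3-fold lower (-3.37 ± 0.60, adjusted p = 0.00802), a call lost with spike-in scaling (adjusted p = 0.0881). Another Actn2 probe was not called (-0.84, adjusted p = 0.385). Actn3, restricted to fast fibers, had -1.59, -0.37 and -1.69 in the tumors and 3.19, 5.0 and 2.34 in healthy skin, 26.5-fold lower (-4.73 ± 0.70, adjusted p = 0.00403), and its log2 fold change was -3.98 without healthy skin 2.

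Des, desmin, the intermediate filament that links neighbouring Z-discs, had -0.56, 0.57 and 0.05 in the tumors and 3.47, 3.49 and -0.03 in healthy skin. Healthy skin 3 lay among the tumors while the other healthy skin arrays lay above them all. The log2 fold change of -2.29 ± 0.92 did not pass (adjusted p = 0.107). Without healthy skin 3 it was -3.46 and passed (adjusted p = 0.0062), with array weights it was -3.05 and passed (adjusted p = 0.00354), and against healthy skin 3 alone it was 0.055. Desmin is also made in smooth muscle. Of the other genes of the group, Tcap, the titin cap, was 29.0-fold lower, Ldb3, a Z-disc scaffold, 26.7-fold and Smpx, a small muscle protein, 25.8-fold. Xirp2, an actin-binding repeat protein, was 11.1-fold lower (-3.47 ± 0.73, adjusted p = 0.0143), a call lost with spike-in scaling, in both slide row fits and by treat, and its log2 fold change was -4.15 without tumor 2.

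**Figure D2:**
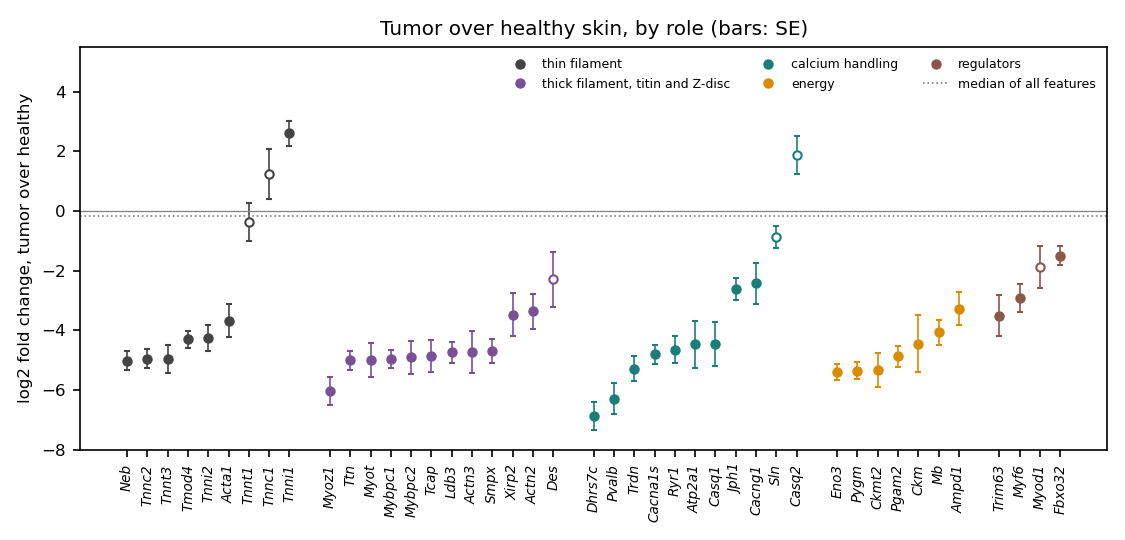
Log2 fold change of tumors over healthy skin (y axis) of each of the 43 genes (x axis, coloured by role), with bars for the standard error, filled points for genes past the test and open points for the others, and a dotted line at the median of all features. Energy genes lie between -5.40 and -3.27, and the 3 points above 0 are Tnni1, Tnnc1 and Casq2.

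Genes of calcium handling held the largest fall of the 43, that of Dhrs7c, and also 2 of the genes that did not pass. Of 11 genes, 9 fell (beside 15.6% of all features), by 5.36-fold to 117-fold. Dhrs7c, a dehydrogenase of the sarcoplasmic reticulum, had -3.43, -2.57 and -4.20 in the tumors and 3.0, 3.84 and 3.58 in healthy skin. The signal was 117-fold lower (-6.87 ± 0.46, adjusted p = 0.000329; probe on chromosome 11, positions 67629444 to 67629503, mm9), and since it was well above background on 2 of 3 tumor arrays, this fold includes a signal near background. Pvalb, parvalbumin, the soluble calcium buffer of fast fibers, had 0.51, 0.90 and -0.81 in the tumors and 5.72, 6.93 and 6.81 in healthy skin, 78.1-fold lower (-6.29 ± 0.53, adjusted p = 0.000652). Trdn, triadin, which joins calsequestrin to the release channel, had -1.68, -0.69 and -2.05 in the tumors and 3.72, 4.18 and 3.53 in healthy skin, 39.0-fold lower (-5.29 ± 0.41, adjusted p = 0.000531). None of these 3 overlapped between the groups.

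The calsequestrins hold calcium inside the reticulum, and their log2 fold changes had opposite signs. Casq1, the form of fast fibers, had -3.08, -2.45 and -3.58 in the tumors and 2.12, 2.53 and -0.37 in healthy skin, 22.1-fold lower (-4.46 ± 0.75, adjusted p = 0.0064; probe on chromosome 1, positions 174140602 to 174142105, mm9). Casq2, the form of cardiac and slow muscle, had -1.69, 0.31 and 0.65 in the tumors and -2.34, -1.48 and -2.53 in healthy skin (probe on chromosome 3, positions 101949827 to 101949884, mm9). Tumors 2 and 3 lay above every healthy skin array, tumor 1 between them, and the log2 fold change of 1.87 ± 0.63 did not pass (adjusted p = 0.0663). Without tumor 1, the array with the highest background, it was 2.59 and passed (adjusted p = 0.0105), as it did with array weights (adjusted p = 0.0156).

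Sln, sarcolipin, a small inhibitor of the calcium pump, had 0.59, 1.29 and 0.75 in the tumors and 2.39, 1.28 and 1.57 in healthy skin. Tumor 2 and healthy skin 2 were level, and the log2 fold change of -0.87 ± 0.38 did not pass (adjusted p = 0.128) and was 0.021 with spike-in scaling. The pump itself, Atp2a1, averaged -0.83 ± 0.50 in tumors and 3.65 ± 1.71 in healthy skin (SD, n = 3 each), 22.2-fold lower. The release channel Ryr1 averaged -1.22 ± 0.59 in tumors and 3.43 ± 0.71 in healthy skin, 25-fold lower. Cacna1s, the voltage sensor that opens this channel, was 28.0-fold lower, and Jph1, which holds the membranes of both together, was 6.09-fold lower, with 1 tumor and 3 healthy skin arrays well above background. The call of Jph1 was lost with spike-in scaling (adjusted p = 0.15) and against healthy skin 3 alone (adjusted p = 0.0503). Cacng1, a subunit of the voltage sensor's channel, was 5.36-fold lower (-2.42 ± 0.69, adjusted p = 0.0388), and that call was lost in 11 of the 20 alternatives that tested it, among them without healthy skin 1 (adjusted p = 0.0942), healthy skin 2 (0.0977), tumor 1 (0.111) or tumor 3 (0.0792).

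All 7 energy genes fell (beside 15.6% of all features), by 9.64-fold to 42.2-fold. In each of them all tumors lay below all healthy skin arrays (beside 29.0% of all features). Eno3, the muscle enolase of glycolysis, had 1.87, 1.97 and 1.48 in the tumors and 7.04, 7.11 and 7.36 in healthy skin. It was 42.2-fold lower (-5.40 ± 0.28, adjusted p = 0.000173; probe on chromosome 11, positions 70475953 to 70476012, mm9) with little spread in either group. Pygm, the phosphorylase that breaks down muscle glycogen, had -0.36, -0.19 and -0.75 in the tumors and 4.69, 5.17 and 4.91 in healthy skin, 40.8-fold lower (-5.35 ± 0.29, adjusted p = 0.000218). Ckmt2, the creatine kinase of muscle mitochondria, had -0.65, -1.74 and -2.79 in the tumors and 3.58, 4.23 and 2.99 in healthy skin, 40.1-fold lower (-5.33 ± 0.58, adjusted p = 0.00135), the tumors lying further apart than in Eno3 and Pygm.

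The smallest fall of the energy genes was that of Ampd1, the muscle AMP deaminase, with -1.38, -1.56 and -2.27 in the tumors and 1.70, 2.54 and 0.36 in healthy skin, 9.64-fold lower (-3.27 ± 0.56, adjusted p = 0.00706), a call lost with spike-in scaling (adjusted p = 0.0899). Pgam2, a muscle enzyme of glycolysis, was 29.3-fold lower, and Mb, myoglobin, the oxygen store of oxidative fibers, was 16.8-fold lower. Ckm, the cytosolic creatine kinase, averaged -0.25 ± 0.79 in tumors and 4.20 ± 2.02 in healthy skin (SD, n = 3 each), 21.8-fold lower (adjusted p = 0.0151). Its healthy skin value rested on the arrays used: the log2 fold change was -5.61 without healthy skin 3, -3.85 without healthy skin 1 and -2.11 against healthy skin 3 alone, where the call was lost (adjusted p = 0.0906) in a fit with 1 healthy skin array whose spread comes from the tumors.

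The 4 regulators had the smallest median change of the roles, -2.40 on the log2 scale, or 19.0% of the healthy skin signal, and none of them was 16-fold lower. Trim63 (-3.51) still fell more than the structural genes Actn2 (-3.37) and Xirp2 (-3.47). The regulators also had the lowest median signal of the roles on every array. Across the 43 genes, those with a lower mean over all 6 arrays fell less (Spearman correlation of fold change with mean signal -0.61). That mean holds the same values that make up the fold change, so the correlation is in part built in. The part of signal level was not tested. The difference between the roles was not tested. Myf6 (MRF4), a myogenic transcription factor of mature fibers, had -3.55, -2.71 and -2.89 in the tumors and 0.31, 0.34 and -1.04 in healthy skin. It was 7.56-fold lower (-2.92 ± 0.46, adjusted p = 0.00488), well above background on 2 of 3 tumor arrays, and the call was lost with spike-in scaling (adjusted p = 0.129). Myod1, the factor that commits cells to the muscle lineage, had -5.30, -5.59 and -5.19 in the tumors and -2.62, -2.59 and -5.25 in healthy skin, well above background on 2 arrays of each group. Healthy skin 3 lay at the level of the tumors, and the log2 fold change of -1.88 ± 0.70 did not pass (adjusted p = 0.086). Without healthy skin 3 it was -2.76 and passed (adjusted p = 0.0037), and it also passed with array weights (-2.73, adjusted p = 0.0018) and with normexp background correction (-1.21, adjusted p = 0.0126).

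Trim63 (MuRF1) and Fbxo32 (atrogin-1) are the ubiquitin ligases best known for rising in wasting muscle, and here both fell. Trim63 had -2.96, -1.65 and -3.07 in the tumors and 1.72, 1.66 and -0.53 in healthy skin, 11.4-fold lower (-3.51 ± 0.68, adjusted p = 0.0109). Fbxo32 had 0.32, 0.02 and -0.20 in the tumors and 1.60, 1.13 and 1.88 in healthy skin, 2.82-fold lower (-1.49 ± 0.31, adjusted p = 0.0142), the smallest of the 36 falls. On these probes neither gene overlapped between the groups. Another Trim63 probe was also called (-3.02, adjusted p = 0.0439), with tumor 2 just above healthy skin 3 (-2.93 and -2.96). Both calls were lost with spike-in scaling (adjusted p = 0.088 for Trim63 and 0.563 for Fbxo32) and by treat, and that of Trim63 also in both slide row fits.

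Forms of a protein, mostly slow against fast, and pairs of regulators were compared within each array, which removes the scaling between arrays. Each probe has its own brightness, so the difference of a pair has no meaning by itself, and its shift between tumors and healthy skin is what was compared, over 8 pairs. The shift was towards the slow or cardiac form in all 3 troponin pairs and in the calsequestrins. Tnni1 minus Tnni2 was -6.22, -5.80 and -5.06 in the tumors and -12.00, -12.47 and -13.19 in healthy skin, a shift of 6.86 log2 units (6.54 to 7.14 leaving out single arrays). Casq2 minus Casq1 was 1.39, 2.76 and 4.22 in the tumors and -4.46, -4.0 and -2.16 in healthy skin, a shift of 6.34 (5.62 to 7.03). For Tnnc1 minus Tnnc2 the shift was 6.18 (mean -8.05 in tumors and -14.23 in healthy skin), 5.22 to 7.16 leaving out single arrays, and it rests on Tnnc1 signals well above background on 2 tumor arrays and 1 healthy skin array. For Tnnt1 minus Tnnt3 it was 4.59 (mean -3.18 in tumors and -7.78 in healthy skin), 3.74 to 5.23 leaving out single arrays. In these 4 pairs the groups did not overlap, and each had the smallest p that 3 arrays against 3 allow (exact permutation test, two-sided, p = 0.1, adjusted p = 0.16 over the 8 pairs), so the design cannot take them past the threshold.

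The slow and fast myosin-binding proteins showed no such shift. Mybpc1 minus Mybpc2 was -0.07, -0.70 and 0.72 in the tumors and 0.41, -0.74 and 0.40 in healthy skin, a shift of -0.04 whose sign changed between alternatives (exact permutation p = 1). Actn2 minus Actn3 shifted by 1.36 (0.73 to 2.10 leaving out single arrays) and Fbxo32 minus Trim63 by 2.02 (1.46 to 2.93), both with overlapping groups (exact permutation p = 0.2, adjusted p = 0.229 each). Myf6 minus Myod1 shifted by -1.04 (-1.33 to -0.62 leaving out single arrays, mean 2.31 in tumors and 3.35 in healthy skin). Its groups did not overlap either, and it too had the smallest possible p (exact permutation p = 0.1, adjusted p = 0.16). The probes of a pair share at most 8 consecutive bases of their 60, so a pair's genes were measured by distinct sequences.

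**Figure D3:**
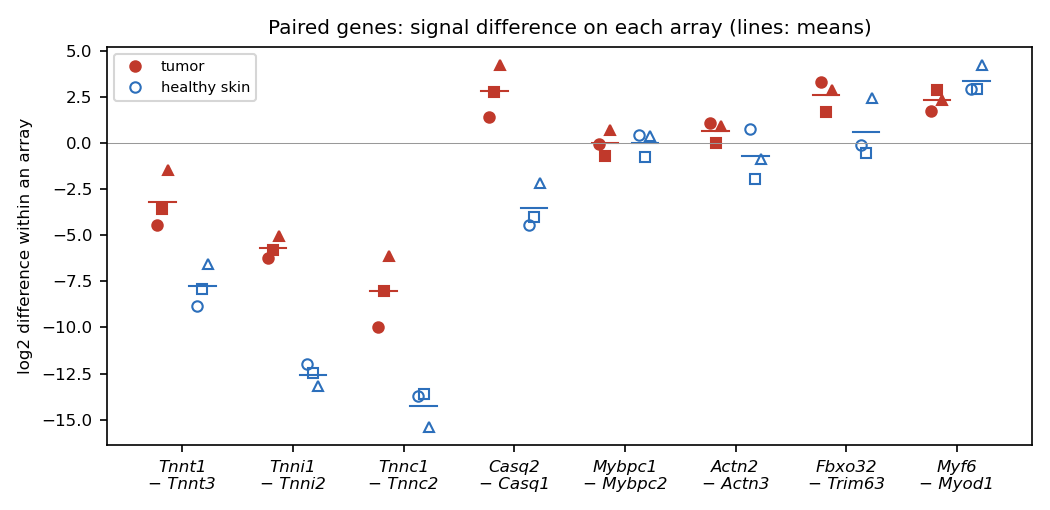
Within-array difference in log2 signal (y axis) of the 8 pairs of genes (x axis) on every array, with filled red symbols for tumors, open blue symbols for healthy skin, the shape for the array number and lines for the group means. The 3 troponin pairs and the calsequestrins lie higher in all tumors than in any healthy skin array, by 4.59 to 6.86 on average, and the myosin-binding protein pair lies at the same height.

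Promoters of the pair that shifted most outside the troponins and of the pair that did not shift are shown for comparison. They are the 250 bases before the gene start from RefSeq (GRCm38.p6), with every E-box CANNTG, the motif that MyoD family factors bind, in capitals. Casq2 lies at chr3:102086165-102086414 on the plus strand, and Casq1 at chr1:172219896-172220145, Mybpc1 at chr10:88605153-88605402 and Mybpc2 at chr7:44524670-44524919 on the minus strand.
Casq2: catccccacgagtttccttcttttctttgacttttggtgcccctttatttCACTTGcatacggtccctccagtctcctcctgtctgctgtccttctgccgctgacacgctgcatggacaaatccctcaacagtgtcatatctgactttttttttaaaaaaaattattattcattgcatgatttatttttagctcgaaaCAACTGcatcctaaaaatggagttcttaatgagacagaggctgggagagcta
Casq1: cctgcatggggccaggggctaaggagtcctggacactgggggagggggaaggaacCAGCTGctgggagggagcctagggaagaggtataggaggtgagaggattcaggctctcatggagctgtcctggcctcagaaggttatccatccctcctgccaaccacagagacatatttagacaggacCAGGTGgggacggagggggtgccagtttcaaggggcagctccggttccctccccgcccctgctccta
Mybpc1: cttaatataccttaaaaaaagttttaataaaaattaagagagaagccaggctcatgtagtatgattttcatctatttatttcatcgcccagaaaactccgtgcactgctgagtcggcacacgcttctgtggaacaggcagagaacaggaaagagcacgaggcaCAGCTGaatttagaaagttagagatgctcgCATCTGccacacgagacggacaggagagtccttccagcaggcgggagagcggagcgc
Mybpc2: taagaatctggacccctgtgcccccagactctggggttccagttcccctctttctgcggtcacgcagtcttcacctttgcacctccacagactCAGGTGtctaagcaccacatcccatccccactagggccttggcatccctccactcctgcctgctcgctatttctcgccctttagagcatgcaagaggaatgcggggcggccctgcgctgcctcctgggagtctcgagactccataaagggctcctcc

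Casq2, Casq1 and Mybpc1 hold 2 E-boxes each in these windows and Mybpc2 holds 1. The form CAGCTG, a case of CANNTG, is present in the windows of Casq1 and Mybpc1, which both fell. It is absent from those of Casq2, which was not called, and Mybpc2, which fell. CAGCTG is also present in the windows of Tnni1, which rose, and of Des, which was not called. Of the 43 genes, 27 had promoters in the RefSeq table, 32 windows in all. A CANNTG was present in 84.4% of these windows and in 66.2% of all 32851 windows, and CAGCTG in 46.9% and 13.0%. Some genes have several windows, and by gene 24 of the 27 had a CANNTG and 13 a CAGCTG. Both motifs read the same on both strands, and a match is a description of letters, with no test.

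Genes outside the 43 that are known from the same structures, in lists chosen with earlier results of these data known, also fell in large part. They made 7 lists of 111 genes, of which 108 were tested. Of these, 63 fell (58.3%, beside 15.6% of all features), 6 rose (beside 10.3% of all features) and 39 did not pass, the median over all of them being -2.28. Among the falls, Trim55, Clcn1 and Dok7 were well above background on no tumor array and passed the filter through healthy skin alone. Among other sarcomere and Z-disc genes 21 of 27 fell, led by Cmya5 (-5.56) and the M-band protein Myom2 (-5.40), while the tropomyosin Tpm3, which is also made outside muscle, rose (0.97, adjusted p = 0.0428). Among other genes of excitation-contraction coupling 13 of 18 fell, led by Mrln, a micropeptide inhibitor of the calcium pump (-5.20), and Hrc, a calcium-binding protein of the reticulum (-4.96). Among other muscle energy genes 10 of 16 fell, led by Ppp1r3c (-5.34) and Ppp1r3a (-5.28), both glycogen-targeting phosphatase subunits. Of 10 dystrophin complex genes 7 fell, led by the sarcoglycans Sgca (-4.91) and Sgcd (-3.86).

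The remaining lists were more mixed, and their small counts are to be read beside the 15.6% of all features that fell and the 10.3% that rose. Of 10 genes of the neuromuscular junction 3 fell, with acetylcholinesterase, Ache (-4.71), and the agrin receptor Lrp4 (-3.75) in front. Among 14 other myogenic regulators and satellite cell genes 6 fell, among them the cofactor Vgll2 (-4.49), and 2 rose, Eya1 (1.42, adjusted p = 0.0334) and the factor Mef2a (1.49, adjusted p = 0.0453). The satellite cell factor Pax7 and the myogenic factor Myf5 did not pass the filter on background. Among 13 other genes of muscle breakdown 3 fell, among them the muscle calpain Capn3 (-4.36) and the factor Klf15 (-3.17), and 3 rose, the lysosomal protease Ctsl (1.95, adjusted p = 0.0131), the translation inhibitor Eif4ebp1 (1.55, adjusted p = 0.0301) and the factor Foxo3 (1.12, adjusted p = 0.0392).

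**Figure D4:**
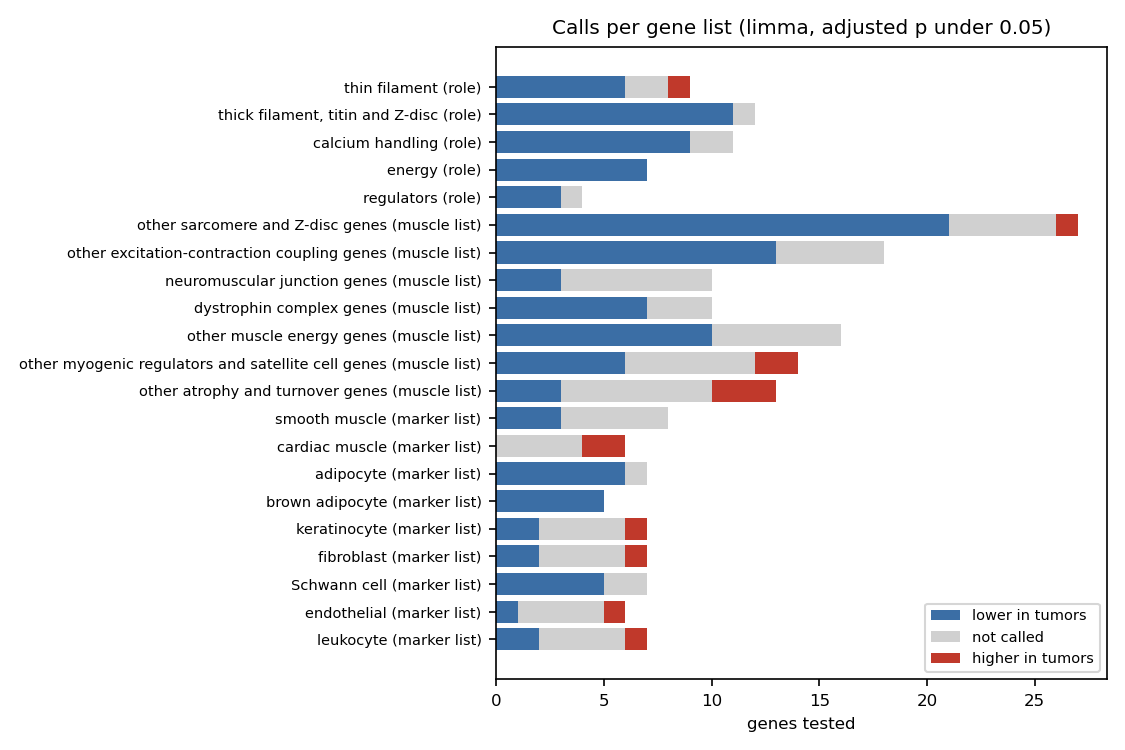
Number of tested genes (x axis) that were lower in tumors (blue), not past the test (grey) or higher in tumors (red) in the 5 roles of the 43 genes, in 7 other muscle lists and in 9 marker lists of other cell types (y axis). All 7 energy genes and all 5 tested genes of the brown adipocyte list are lower, and no cardiac marker is.

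Markers of other cell types moved beside the muscle genes, and their counts are to be read beside the 15.6% of all features that fell and the 10.3% that rose. Of 7 tested adipocyte markers 6 fell (median -4.61). The summed signal of the 7 on the linear scale, in units of the array's 75th percentile, was 66.2 to 199.98 in the tumors and 152 to 405 in healthy skin. Most of the tumor sum comes with Fabp4, the marker that was not called (log2 signals of 7.42, 7.57 and 5.99 in the tumors and 5.30, 6.14 and 6.86 in healthy skin). The largest part of the healthy skin sum comes with Car3 (6.67, 6.97 and 7.80), the largest fall of the list (-5.49). All 5 tested genes of the brown adipocyte list fell (median -3.41, summed signal 11.5 to 19.9 in the tumors and 62.6 to 101 in healthy skin), with Ucp1 not past the background filter. Their largest falls were those of Cox8b (-5.33) and Ppargc1a (-4.98), and whether these signals came from fat or from muscle was not tested. Of 7 Schwann cell markers 5 fell (median -2.35, 9.39 to 23.0 in the tumors and 14.2 to 26.1 in healthy skin), and of 8 smooth muscle markers 3 fell (median -0.57, 42.5 to 112 in the tumors and 41.8 to 125 in healthy skin). Of these 3, Lmod1 was well above background on no tumor array and passed the filter through healthy skin alone. Of 6 endothelial markers 1 fell and 1 rose (median -0.57, 11.6 to 13.5 in the tumors and 18.4 to 78.0 in healthy skin), and the top of the healthy skin range comes with Kdr on healthy skin 3 (log2 signal 6.05, against 3.35 and 3.48 on the other healthy skin arrays). Of 7 leukocyte markers 2 fell and 1 rose. Their median was 0.96, on the higher side in tumors, while their summed signal was lower there (30.6 to 80.6 in the tumors and 90.9 to 275 in healthy skin), with Itgam, which fell, at log2 signals of 3.84 to 4.45 in the tumors and 5.96 to 7.88 in healthy skin. Of 7 keratinocyte markers 2 fell and 1 rose (median -0.27, 761 to 857 in the tumors and 904 to 1409 in healthy skin), as did 2 and 1 of 7 fibroblast markers (median -0.25, 268 to 561 in the tumors and 229 to 418 in healthy skin). The part of these cell types in the muscle result was not tested.

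Cardiac muscle shares Tnnc1 and Casq2 with slow fibers, and its markers are given for comparison. Of 6 tested, 2 rose and none fell (median 1.26, summed signal 2.19 to 12.2 in the tumors and 1.94 to 3.26 in healthy skin), and Ryr2 and Sbk2 did not pass the background filter. Myl7, an atrial myosin light chain, passed the background filter through the tumor arrays alone, with no healthy skin array well above background. Its rise, given as a bound of at least 5.73-fold, therefore compares a tumor signal with values at background. Nppb, a natriuretic peptide, rose by 1.86 log2 units (adjusted p = 0.0185). Tnnt2, cardiac troponin T, had 0.05, 3.16 and 2.26 in the tumors and -0.56, 0.26 and 0.28 in healthy skin and did not pass (adjusted p = 0.11), and neither did Tnni3, cardiac troponin I (-0.61, adjusted p = 0.167). Their part in the values of Tnnc1 and Casq2 was not tested.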

How the data were processed

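Cy3-labelled total RNA was hybridised to 1-colour Agilent arrays of 62976 spots. The deposited intensity values come from Agilent's Feature Extraction software (version 10.7.3.1, per the file headers), with its background already subtracted. The deposited series table holds log2 values that rank each array's spots as the median signal does (Spearman 1), with medians of 6.33 to 6.35. Per the submitters' processing notes, limma was used, with no version given.

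Processed signals were put on the log2 scale, and the 75th percentile of an array's 59305 spots other than controls was subtracted. Outlier spots were left out (180 of 55681 probes lost), spots of a probe averaged, probes kept (34284) if 3 or more of the 6 arrays had them well above background, and a gene's probe with the highest mean used. Names came from RefSeq accessions, symbols or synonyms (GRCm38.p6, used for names and promoters), and 8288 features kept the array's name. Probe positions are mm9, and the array's chromosome matched RefSeq for 43 of 43 genes. The test was that of limma (version 3.58.1, in R 4.3.3; lmFit, eBayes, without a block), tested on simulated data. Where a group has no array well above background, the fold is a bound against the lowest signals well above background. The number of arrays limits the precision.

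All 43 genes are named. Those with the largest 3 changes or the smallest change of a role, those in a pair, those not called and those called higher have values on every array. Of other lists, the 2 largest calls and calls against the majority are named. A gene that this rule names is not reported here. Members, lists and tests were chosen with earlier results of these data known. Alternatives were median, quantile and spike-in scaling, normexp correction (offset 50), the authors' values, the detection filter, the choice of probe, a variance trend, array weights, replicate and slide row blocks, leaving out arrays, and treat.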

Additional observations from a re-analysis of the deposited data

How the results depend on the processing

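Of the 36 genes called lower, 26 were called in every alternative that tested them (Dhrs7c in 20, the others in all 21), 10 were lost in at least 1 and none turned its sign. The number called lower ran from 27 with spike-in scaling to 38 without the healthy skin 3 and tumor 1 arrays, and from 35 to 38 leaving out single arrays. Spike-in scaling, which moved the median of all features to 0.73, gave a median of -3.58 for the 43 genes, 34 lower genes among the other muscle lists (53 to 66 leaving out single arrays), and 2678 called features, 70.8% of them higher, against 39.8% as reported, 50.7% with median scaling and 48.4% with all 6 arrays above background. Blocking on slide row gave a median of -3.79, and slide row 2 by itself -3.79. Called features numbered 6420 as reported, 3920 without a detection filter, 9858 with array weights, 1666 by treat and 3840 to 5458 leaving out single arrays. Signs turned for Tnnt1 (0.54 with spike-in scaling, -0.93 to 0.26 leaving out single arrays, 0.42 without healthy skin 3 and tumor 1), Sln (0.021 with spike-in scaling), Des (0.055 in a fit blocked on slide row, 0.055 on slide row 2 by itself) and Mybpc1 minus Mybpc2 (0.031 with normexp correction, 0.036 with the authors' values, -0.42 to 0.30 leaving out single arrays). The cause was not tested. Same-numbered samples did not pair (correlations 0.10, 0.13 and -0.08), and the replicate block gave 36 genes lower and 38 called in all, 5470 called features and a median of -4.47, with Casq2 now called higher (1.87, adjusted p = 0.0481). Tested by themselves, 57 probes of the genes gave 48 lower and 1 higher. Signals near background limit Jph1, Dhrs7c, Cacng1, Myf6, Myod1, Tnnc1 and Tnni1.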
